A study of Saccharomyces cerevisiae with 18 samples.

Results

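The 10 genes described here encode the budding yeast transcription factors SBF and MBF, proteins that regulate them, and transcription factors that are made in G1 under their control. They were chosen by name, as the probe sets annotated to SWI6, SWI4 and MBP1 (the subunits), WHI5, STB1 and NRM1 (regulators), and HCM1, YHP1, YOX1 and TOS8 (transcription factors of the G1 programme). Each had 1 probe set, and together they are 10 of the 5449 genes measured. All 10 were above the background level of 4.518 (log2 signal) on the 18 arrays, except SWI6 on the 6 arrays of the deletant.

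SBF is made of Swi4 and Swi6, and MBF of Mbp1 and Swi6. Swi4 and Mbp1 bind DNA, and Swi6 joins each of them to the proteins that switch G1 genes on or off. Whi5 holds SBF inactive in early G1 until the G1 cyclin Cln3 and its kinase release it, and Nrm1, itself an MBF product, turns MBF targets off again as cells leave G1. Several products of this burst are transcription factors that carry the cell cycle forward or close the loop, such as the repressors Yox1 and Yhp1, which act with Mcm1 on SWI4 and other early G1 genes.

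The study asked whether a cysteine of Swi6 takes part in the redox control of the cell cycle. It compared SWI6 wild type cells, a deletant of SWI6 and a strain whose Swi6 has that cysteine replaced by alanine (C404A mutant). Each genotype was sampled untreated (control) and after 45 min in 30 µM linoleic acid hydroperoxide (LoaOOH), a lipid peroxide that causes oxidative stress. Each of the 6 groups has 3 arrays. All cultures were grown at 30 °C in medium lacking leucine to an OD600 of 0.4. How each SWI6 allele was introduced, and whether a mutant strain was 1 clone, was not stated in the labels used here. The cultures were not labelled as synchronised, so a difference between groups can reflect fewer cells in a phase or less RNA per cell, and the 2 cannot be told apart.

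Array medians over the measured genes lay between 10.56 and 10.64, and the SD across genes of the deviation from the group mean ran from 0.0955 to 0.203 per array. Chromosome V genes were raised in both mutants relative to wild type: their median shift against the other chromosomes ran from 0.72 to 0.803 (log2) on the 6 deletant arrays, from 0.684 to 0.772 on the 6 C404A arrays and from -0.006 to 0.007 on the 6 wild type arrays. SWI4 is the member on chromosome V. For other cell types, the 5 genes of a cells (STE2, MFA1, MFA2, STE6 and BAR1) lay between 12 and 13.8 in all groups, with 0 of 5 called between genotypes. Of the 3 genes of alpha cells, MF(ALPHA)1, which encodes alpha-factor, rose in deletant cells by 1.70 (log2) without LoaOOH and 1.31 with it, and in C404A control cells by 0.72 (adjusted p = 0.0477), where it was below the deletant by a difference of -0.97 (adjusted p = 0.0298). Its group means ran from 5.59 to 7.285, while MF(ALPHA)2 lay between 5.479 and 5.951 and STE3 between 7.85 and 8.093. Of 4 meiosis genes IME2 fell in deletant control cells, by 0.48, and 0 passed in the C404A mutant. The part of these differences in the results below was not tested.

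**Figure D1:**
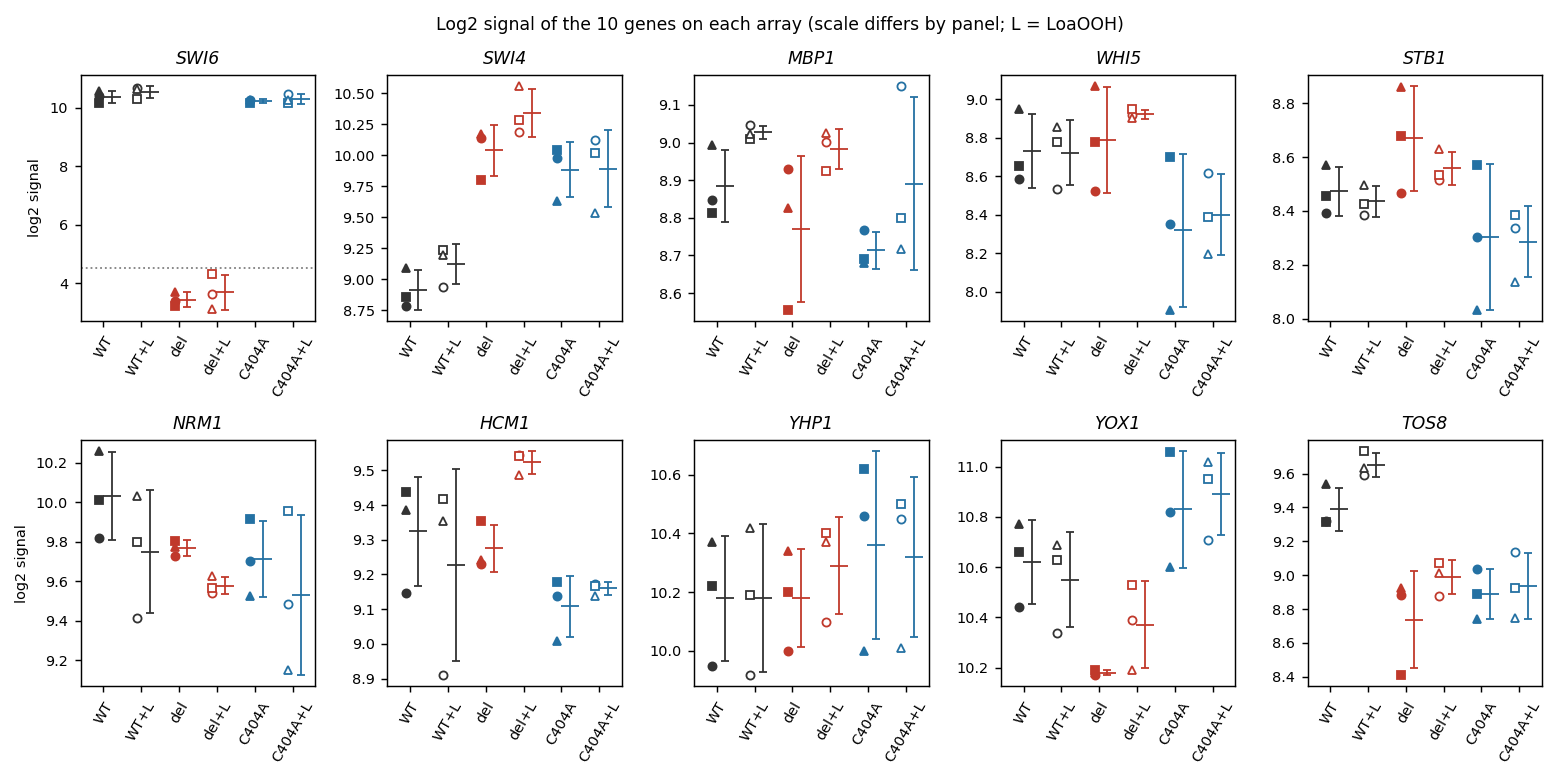
Log2 signal of each of the 10 genes (y axis, with its own scale in each panel) on the 18 arrays, by group (x axis; WT, wild type; del, deletant; L, LoaOOH). Circles, squares and triangles are replicates 1, 2 and 3, filled for control and open for LoaOOH; the bar beside them is the mean ± SD of 3 arrays, and the dotted line in the SWI6 panel is the background level of 4.518. SWI6 is below background in the deletant, SWI4 is higher in both mutants, TOS8 is lower in both mutants, and YOX1 is lowest in deletant control cells.

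SWI6, the shared subunit and the gene that was altered, served as a check of the labels. Its log2 signal on replicates 1, 2 and 3 was 3.39, 3.23 and 3.72 in deletant control cells and 3.64, 4.33 and 3.13 after LoaOOH, all below background. It was 10.42, 10.15 and 10.56 in wild type control cells and 10.28, 10.15 and 10.28 in C404A control cells. After LoaOOH it was 10.68, 10.29 and 10.65 in wild type and 10.48, 10.15 and 10.26 in C404A cells. Against background, these levels exceed those of the deletant by at least 58.1-fold in wild type control cells and at least 52.6-fold in C404A control cells. The probe set does not tell the C404A allele from the wild type allele, so the SWI6 level checks the deletant labels only.

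SWI4, the DNA-binding subunit of SBF, rose in both mutants relative to wild type. Its log2 signal in control cells was 8.79, 8.86 and 9.09 in wild type, 10.14, 9.80 and 10.17 in the deletant, and 9.98, 10.04 and 9.63 in the C404A mutant. After LoaOOH it was 8.94, 9.24 and 9.20 in wild type, 10.19, 10.28 and 10.56 in the deletant, and 10.12, 10.02 and 9.54 in the C404A mutant. No mutant array overlapped a wild type array, and replicate 3 was the lowest of the C404A arrays with and without LoaOOH. SWI4 was 2.18-fold above wild type in deletant control cells (log2 difference 1.12 ± 0.163 SE, adjusted p = 0.000184) and 2.33-fold above it after LoaOOH (1.22 ± 0.163, adjusted p = 7.78e-05). In the C404A mutant it was 1.96-fold higher in control cells (0.97 ± 0.163, adjusted p = 0.000964) and 1.7-fold higher after LoaOOH (0.77 ± 0.163, adjusted p = 0.00727). These and all other adjusted p-values are from limma, fitted to all 18 arrays with 3 per group, with the Benjamini-Hochberg adjustment taken over 5449 genes.

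SWI4 was set against the other genes of its chromosome. In deletant control cells the median of the 259 chromosome V genes was 0.758 above wild type, and 82.6% of them passed the test. SWI4 lay 0.365 above that median, and 14 of the 259 genes (5.41%) had a larger difference. After LoaOOH 4 of them (1.54%) did. In the C404A mutant 40 chromosome V genes (15.4%) exceeded SWI4 in control cells and 102 (39.4%) after LoaOOH. With the chromosome V shift of each mutant array subtracted, SWI4 no longer passed in any of the 4 comparisons. The remaining difference was 0.36 for deletant control cells (adjusted p = 0.187), 0.43 for deletant LoaOOH cells (adjusted p = 0.11), 0.23 for C404A control cells (adjusted p = 0.372) and 0.02 for C404A LoaOOH cells (adjusted p = 0.958). On single arrays the remainder was 0.165 to 0.631 in the deletant and -0.32 to 0.362 in the C404A mutant, the lowest value being C404A LoaOOH replicate 3.

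**Figure D2:**
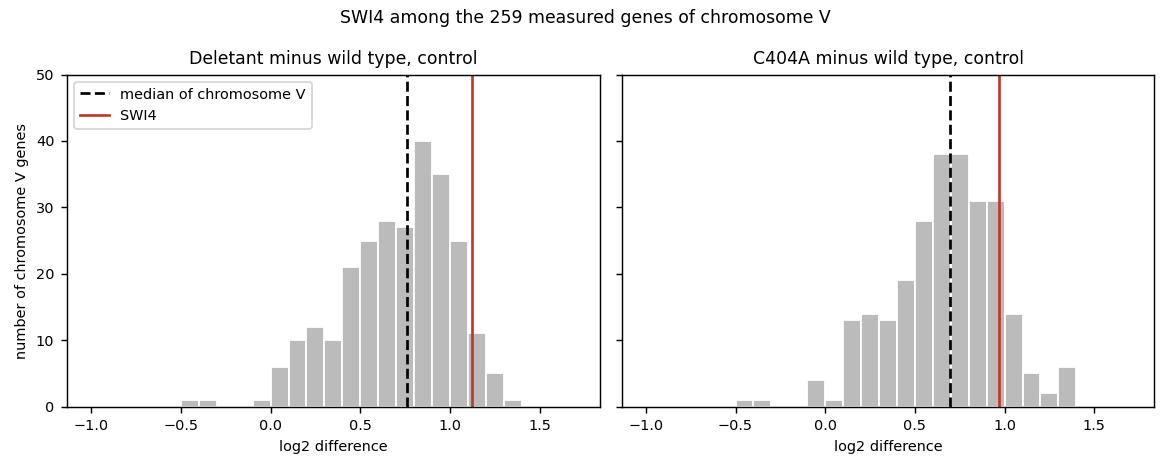
Number of chromosome V genes (y axis) by log2 difference from wild type in control cells (x axis, bins of 0.1) for the deletant and the C404A mutant. The dashed line is the median of the 259 genes (0.758 and 0.696) and the solid line is SWI4 (1.123 and 0.97), which lies above the median in both panels and nearer the upper edge in the deletant.

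In the sample descriptions replicates 1 and 2 are marked CT and replicate 3 is marked JC, and the labels do not say what these letters mean. The rise of SWI4 in the deletant was of like size in both sets: 1.14 on the CT arrays (adjusted p = 0.000887) and 1.08 in the single JC pair of control cells, and 1.15 (adjusted p = 0.000799) and 1.36 after LoaOOH. In C404A control cells it was 1.19 on the CT arrays (adjusted p = 0.000912) against 0.54 in the JC pair, and after LoaOOH 0.98 (adjusted p = 0.0023) against 0.34. The JC values rest on 1 array per group and have no test. Between the 2 mutants SWI4 did not pass the test, at -0.15 in control cells (95% interval -0.501 to 0.195, adjusted p = 0.646) and -0.45 after LoaOOH (-0.799 to -0.103, adjusted p = 0.255). On the CT arrays these differences were 0.04 (adjusted p = 0.982) and -0.17 (adjusted p = 0.711), and in the JC pairs -0.54 and -1.02.

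MBP1, the DNA-binding subunit of MBF, varied little. Its 6 group means lay within 0.314 of each other, from 8.713 in C404A control cells to 9.027 in wild type LoaOOH cells, and each group overlapped its neighbour in that order. Without LoaOOH it differed from wild type by -0.11 in the deletant (95% interval -0.337 to 0.11, adjusted p = 0.583), and C404A minus wild type was -0.17 (-0.395 to 0.052, adjusted p = 0.331).

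None of the 3 regulators passed in any of the 11 comparisons. WHI5, the repressor of SBF, had its 2 lowest group means in the C404A mutant, at 8.319 ± 0.398 in control cells and 8.401 ± 0.209 after LoaOOH (SD, n = 3), and its highest in deletant LoaOOH cells at 8.922 ± 0.023. On replicates 1, 2 and 3 the C404A control arrays read 8.35, 8.70 and 7.91 and the wild type control arrays 8.59, 8.65 and 8.95, so these groups overlapped. The difference of -0.41 ± 0.181 (SE) between them did not pass (95% interval -0.797 to -0.027, adjusted p = 0.175). This difference lay mostly in 1 pair of arrays: it was -0.09 on the CT arrays (adjusted p = 0.757) and -1.05 in the JC pair. C404A minus deletant was -0.47 without LoaOOH (adjusted p = 0.245) and -0.52 with it (adjusted p = 0.232), where the arrays did not overlap. Without LoaOOH it was -0.12 on the CT arrays (adjusted p = 0.952) and -1.17 in the JC pair. With LoaOOH these values were -0.43 (adjusted p = 0.345) and -0.705.

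STB1 encodes a protein that binds Swi6 and the Sin3 co-repressor. It had the same order of genotypes as WHI5, from 8.286 ± 0.132 in C404A LoaOOH cells to 8.669 ± 0.196 in deletant control cells (SD, n = 3). The C404A mutant differed from the deletant by -0.37 ± 0.121 (SE) in control cells (adjusted p = 0.174), with C404A replicate 2 at 8.57 inside the deletant range of 8.468 to 8.86. On the CT arrays that difference was -0.14 and in the JC pair -0.83. Relative to wild type, STB1 in control cells differed by 0.20 for the deletant (95% interval -0.061 to 0.454) and -0.17 for C404A (-0.428 to 0.087).

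NRM1, the co-repressor of MBF and an MBF target itself, was highest in wild type control cells, at 9.82, 10.01 and 10.26 on replicates 1, 2 and 3. The deletant control arrays, at 9.73, 9.80 and 9.77, all lay below them, by a margin smaller than the spread of the wild type arrays. The difference was -0.26 ± 0.183 (SE, 95% interval -0.653 to 0.127, adjusted p = 0.441). For C404A control cells it was -0.32 (95% interval -0.707 to 0.073, adjusted p = 0.302), made up of -0.11 on the CT arrays and -0.74 in the JC pair.

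TOS8, which encodes a homeodomain transcription factor and is an SBF target, fell in both mutants relative to wild type, with and without LoaOOH. In control cells its log2 signal on replicates 1, 2 and 3 was 9.32, 9.31 and 9.54 in wild type, 8.88, 8.41 and 8.92 in the deletant, and 9.04, 8.89 and 8.74 in the C404A mutant. After LoaOOH it was 9.59, 9.73 and 9.63 in wild type, 8.88, 9.07 and 9.01 in the deletant, and 9.14, 8.92 and 8.75 in the C404A mutant. Every wild type array lay above every mutant array, and the 2 mutants overlapped.

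In the deletant TOS8 fell by 0.65 ± 0.131 (SE) on the log2 scale in control cells, which is 1.57-fold (adjusted p = 0.00377). With LoaOOH it fell by 0.66 ± 0.131 (adjusted p = 0.00311). Both calls held under all 15 alternatives tried for each. On the CT arrays the difference was -0.67 without LoaOOH (adjusted p = 0.0367) and -0.69 with it (adjusted p = 0.0327), and in the JC pairs -0.61 and -0.62. In the C404A mutant it fell by 0.50 ± 0.131 in control cells, 1.42-fold (adjusted p = 0.0284), and by 0.71 ± 0.131 after LoaOOH, 1.64-fold (adjusted p = 0.0022). The C404A comparisons use the same wild type arrays as those of the deletant. The C404A control result was less firm: the call was lost without wild type control replicate 1, 2 or 3 or C404A control replicate 2 or 3 (adjusted p from 0.0506 to 0.133), with the chromosome V shift removed (0.0513) or chromosome V genes left out (0.0644), and on the CT arrays alone the difference was -0.35 (adjusted p = 0.263) against -0.80 in the JC pair. After LoaOOH the CT arrays gave -0.63 (adjusted p = 0.0592) and the JC pair -0.88. Between the mutants TOS8 differed by 0.15 in control cells (95% interval -0.13 to 0.431, adjusted p = 0.566) and by -0.05 after LoaOOH (-0.331 to 0.23, adjusted p = 0.894).

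YOX1, a homeodomain repressor that acts with Mcm1 at early G1 promoters, was lowest in the deletant and highest in the C404A mutant. In deletant control cells the 3 arrays lay within 10.17 and 10.19. They were 10.44, 10.66 and 10.77 in wild type control cells and 10.82, 11.06 and 10.60 in C404A control cells. The deletant control arrays thus lay below every control array of both other genotypes, and C404A replicate 3 fell inside the wild type range. YOX1 fell 1.36-fold in the deletant against wild type (log2 difference -0.44 ± 0.131, adjusted p = 0.0431) and was 1.56-fold higher in the C404A mutant than in the deletant (0.65 ± 0.131, adjusted p = 0.02).

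The first of these calls was near the threshold. It was lost without deletant control replicate 1, 2 or 3 or wild type control replicate 2 or 3 (adjusted p from 0.0992 to 0.15), with the chromosome V shift removed (0.0621) or chromosome V genes left out (0.0692), and with the CT and JC marks as a block (0.0613), while the difference stayed between -0.535 and -0.371 in all 15 alternatives. The CT arrays gave -0.37 (adjusted p = 0.171) and the JC pair -0.59. The difference between the mutants was 0.76 on the CT arrays (adjusted p = 0.0956) and 0.42 in the JC pair, and its call was lost without deletant control replicate 1, 2 or 3 or C404A control replicate 2 (adjusted p from 0.055 to 0.0869). After LoaOOH the same contrasts did not pass. Deletant minus wild type was -0.19 (adjusted p = 0.454), and C404A minus deletant was 0.53 (95% interval 0.246 to 0.806, adjusted p = 0.0645). C404A minus wild type was 0.20 without LoaOOH (adjusted p = 0.362), with opposite signs on the CT arrays (0.39) and in the JC pair (-0.17), and 0.34 with it (adjusted p = 0.136).

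YHP1, which encodes the other homeodomain repressor of this pair, had group means within 0.18 of each other, from 10.18 to 10.36, with every group overlapping its neighbours in rank. In control cells it differed from wild type by 0 to the third decimal in the deletant (95% interval -0.384 to 0.385), and C404A minus wild type was 0.18 (-0.203 to 0.566), with 0.46 on the CT arrays and -0.37 in the JC pair. HCM1, the forkhead factor of S phase, ran from 9.108 ± 0.0884 in C404A control cells to 9.523 ± 0.0324 in deletant LoaOOH cells (SD, n = 3), and the latter arrays lay above all others. Against wild type after LoaOOH the deletant differed by 0.30 ± 0.109 (SE, adjusted p = 0.107), which became a call without wild type LoaOOH replicate 2 (adjusted p = 0.048). Without LoaOOH the difference from wild type was -0.05 for the deletant (95% interval -0.281 to 0.184) and -0.22 for C404A (-0.447 to 0.017).

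**Figure D3:**
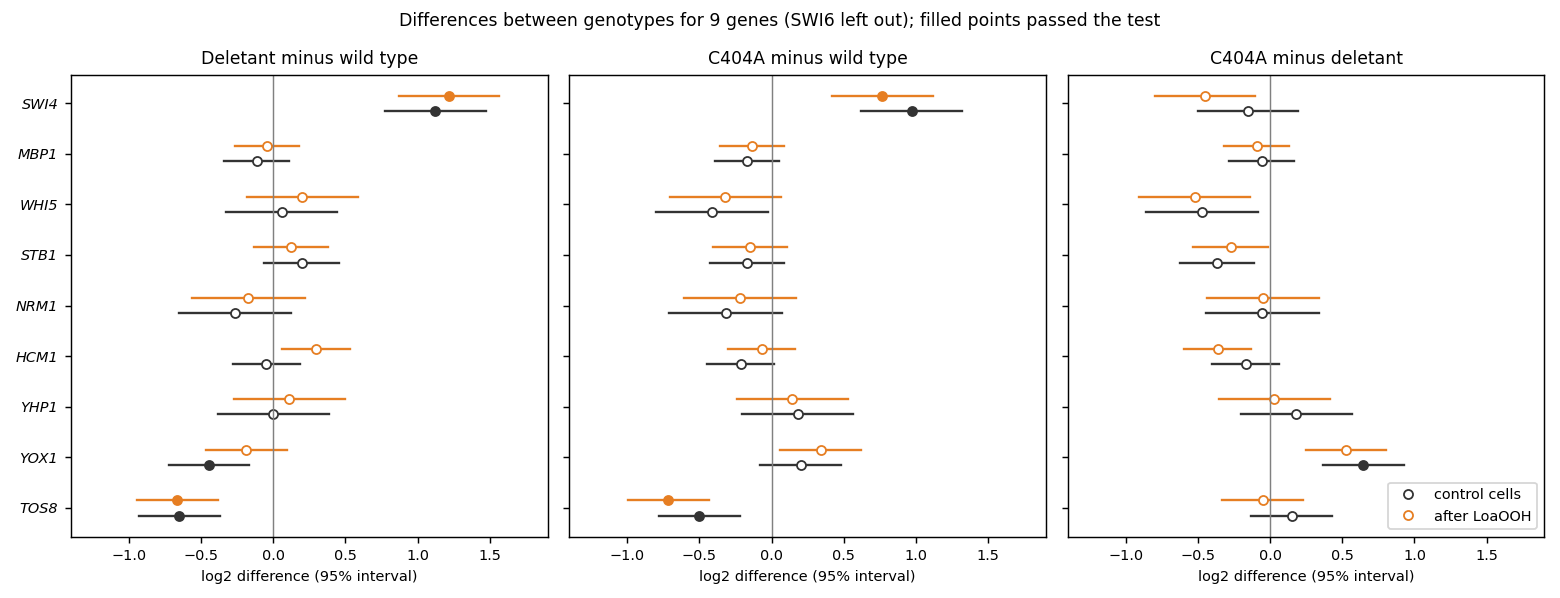
Log2 difference between genotypes (x axis, point and 95% interval from limma) for 9 genes (y axis), in control cells (dark) and after LoaOOH (orange). Filled points passed the test at an adjusted p of 0.05. SWI4 is above wild type and TOS8 below it in both mutants, YOX1 separates the mutants in control cells, and the intervals of MBP1 and YHP1 include 0 in every panel.

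Counted over all members, 4 of 10 passed between deletant and wild type control cells (SWI6, SWI4, YOX1 and TOS8), where 10.1% of all genes did. After LoaOOH 3 passed (SWI6, SWI4 and TOS8) against a background of 10.4%. Between the C404A mutant and wild type 2 passed in control cells (SWI4 and TOS8, background 8.24%) and 2 after LoaOOH (the same pair, background 7.38%). Between the C404A mutant and the deletant 2 passed in control cells (SWI6 and YOX1, background 1.8%) and 1 after LoaOOH (SWI6, background 1.45%). SWI6 was altered by design and SWI4 lies on the shifted chromosome. Of the other 8 members, 2 passed between deletant and wild type control cells, where 6.49% of genes off chromosome V did, and 1 passed in each of the other mutant comparisons with wild type (6.78% of such genes in the deletant after LoaOOH, and 4.57% and 3.72% in the C404A mutant without and with LoaOOH). Between the mutants 1 of the 8 passed in control cells (1.81% of such genes) and 0 after LoaOOH (1.45%). Counts this small cannot be set apart from the background.

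The arrays of 5 of 10 members did not overlap between deletant and wild type control cells, as for 29% of all genes, and those of 6 did not after LoaOOH (32.9%). For the C404A mutant against wild type it was 3 members in control cells (31.8% of genes) and 4 after LoaOOH (23.5%), and for the C404A mutant against the deletant 3 (19.8%) and 6 (18%). The 6 are SWI6, SWI4, WHI5, STB1, HCM1 and YOX1, SWI6 and YOX1 higher and the other 4 lower in C404A LoaOOH cells. Between LoaOOH and control arrays it was 2 members in wild type (27.9% of genes), 3 in the deletant (29.9%) and 0 for C404A (3.56%). The median difference of the 9 members other than SWI6 was -0.05 for the deletant and -0.17 for the C404A mutant in control cells, beside -0.01 and -0.03 over all genes.

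LoaOOH did not change any member past the test in any genotype. By limma without pairs 0 of 10 passed in wild type, against 0.257% of all genes, and 0 members were under an unadjusted p of 0.05. For the deletant 0 of 10 passed, against 3.56% (194 genes), with 1 member (HCM1) under an unadjusted p of 0.05; leaving out any 1 of its 6 arrays brought the 194 genes to between 0 and 59. For C404A 0 of 10 passed, and limma called 0 of 5449 genes (0%), 319 of which had an unadjusted p under 0.05. The count over all genes was 14 without C404A control replicate 2 and 183 without C404A LoaOOH replicate 2, and the count of members was 0 in both. A further fit, chosen after seeing the data, put a block on each same-numbered pair of control and LoaOOH arrays in every genotype. It included the deletant, whose numbers were not taken as pairs. With these pairs the count over all genes in wild type was 1 instead of 14. No member passed in wild type or in C404A cells, where NRM1 and MBP1 both had an adjusted p of 0.481.

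In the fit without pairs, the 95% interval of the mean response included 0 for all members except HCM1 in the deletant. In wild type NRM1 differed by -0.28 after LoaOOH (95% interval -0.672 to 0.109, adjusted p = 0.465) and was lower in all 3 replicate numbers, by 0.403, 0.211 and 0.23. With the pairs the wild type difference of NRM1 was the same, with an SE of 0.077 (limma adjusted p = 0.0706). That SE rests on the pairs of all 3 genotypes. In C404A cells NRM1 differed by -0.18 with the same SE (adjusted p = 0.481). TOS8 differed in wild type by 0.26 (95% interval -0.019 to 0.542, adjusted p = 0.307) and was higher in all 3 replicate numbers. With the pairs its SE was 0.116 (adjusted p = 0.183). SWI4 differed by 0.21 in wild type (adjusted p = 0.558), 0.31 in the deletant (adjusted p = 0.303) and 0.01 in C404A cells (adjusted p = 0.996). With the pairs the SE of SWI4 was 0.0898 instead of 0.163, and its adjusted p was 0.168 in wild type and 0.977 in C404A cells. In the deletant HCM1 differed by 0.25 ± 0.109 (SE, 95% interval 0.016 to 0.48, adjusted p = 0.201), with the 3 LoaOOH arrays (9.54, 9.54 and 9.49) above the 3 control arrays (9.23, 9.35 and 9.24). MBP1 was above its control in all 3 replicate numbers of each genotype, by means of 0.14 in wild type, 0.21 in the deletant and 0.18 in C404A cells, with adjusted p of 0.528, 0.257 and 0.822. With the pairs its adjusted p was 0.276 in wild type and 0.481 in C404A cells. The deletant's numbers were not taken as pairs, and its MBP1 arrays with and without LoaOOH overlapped.

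The response itself was compared between genotypes. No member passed in the deletant or the C404A mutant against wild type, and limma called 0 of 5449 genes in both comparisons, with 20 and 33 genes under an unadjusted p of 0.05. The difference furthest from 0 among members was HCM1 in the deletant, at 0.34 ± 0.154 (SE, 95% interval 0.016 to 0.673, adjusted p = 1). With 3 arrays per group the median SE of such a difference over all genes was 0.144 on the log2 scale.

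**Figure D4:**
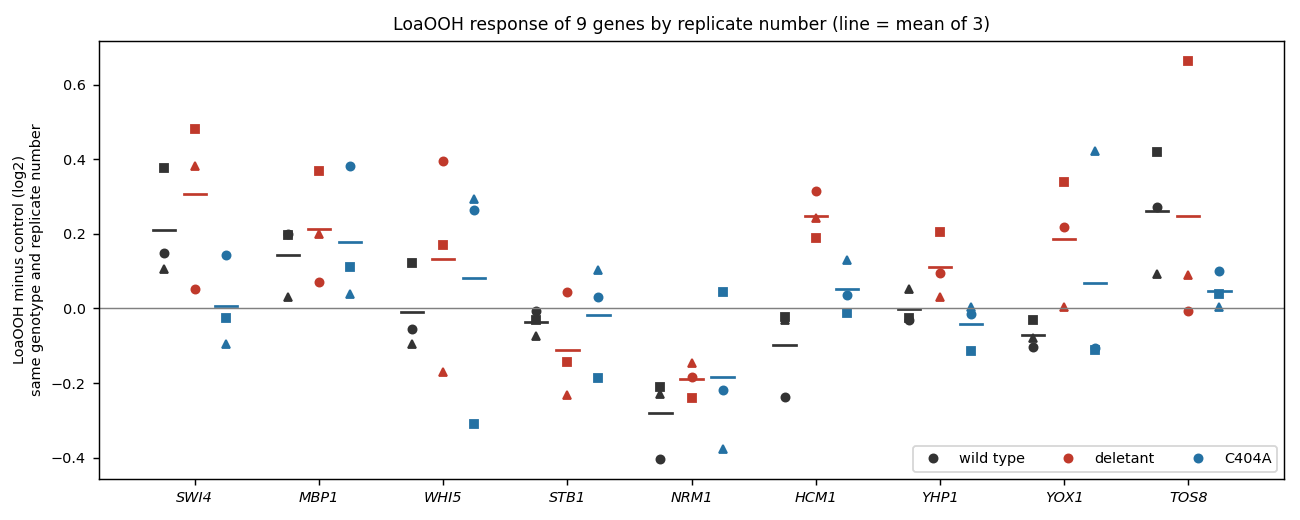
LoaOOH minus control log2 signal (y axis) for 9 genes (x axis), for each genotype and replicate number (circle, square and triangle for replicates 1, 2 and 3), with the mean of 3 as a line. NRM1 is below 0 in all replicates of wild type and the deletant, and HCM1 is above 0 in every replicate of the deletant and below 0 in every replicate of wild type; none of these responses passed the test.

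Genes around the members in the pathway were counted from lists. The shares of all genes called, beside which these counts stand, are those given above: 10.1% and 8.24% for the deletant and the C404A mutant against wild type in control cells, and 1.8% between the mutants. Of 11 inputs and cofactors of G1 start, 2 rose in deletant control cells and 0 fell (median 0.07, over all genes -0.01). MSA2, which encodes a protein bound to SBF and MBF, rose by 0.58 ± 0.101 (SE, adjusted p = 0.000947), and BCK2, an activator of G1 genes on chromosome V, by 0.44 (adjusted p = 0.0321). Among LoaOOH arrays MSA2 was above wild type in the deletant too, by 0.48 (adjusted p = 0.00512). It was lower in C404A than in deletant control cells at -0.46 (adjusted p = 0.03). Of the same 11 genes BCK2 alone rose in C404A control cells (0.48, adjusted p = 0.0259), and MSA2 differed by 0.12 (adjusted p = 0.475). MSA1, which encodes the related protein, differed from wild type by 0.21 in deletant control cells (adjusted p = 0.302) and by -0.13 in C404A control cells (adjusted p = 0.519). CLN3, the upstream G1 cyclin gene, differed by 0.07 (adjusted p = 0.765) and -0.31 (adjusted p = 0.0953).

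Of 7 genes listed as paralogs or family relatives, PLM2 alone passed against wild type, rising by 1.20 ± 0.0962 in deletant control cells (adjusted p = 6.14e-07). With LoaOOH the rise was 1.39 ± 0.0962 (adjusted p = 1.43e-07). PLM2 is a G1 gene and the paralog of TOS4, which is no member; their forkhead-associated domain is distinct from the DNA-binding forkhead domain of Hcm1. SRL3, the paralog of WHI5, differed by -0.29 in deletant (adjusted p = 0.379) and -0.48 in C404A control cells (adjusted p = 0.115). CUP9, the paralog of TOS8, differed by -0.20 (adjusted p = 0.375) and 0.02 (adjusted p = 0.945), where TOS8 passed in both. Whether TOS8 and CUP9 differed from each other was not tested.

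Among 22 SBF targets other than TOS8, 8 fell and 3 rose in deletant control cells (median -0.09), led by TOS6, HO and SVS1 at -5.97, -2.04 and -2.00. For C404A control cells 1 fell (CWP1, -0.60) and 1 rose (MNN1, 0.88, on chromosome V), and against the deletant 9 were higher and 0 lower. Among 28 measured MBF targets 4 fell and 5 rose in the deletant (median 0.04), with CLB6 at -2.13 and DUN1 at 0.82 the furthest apart. In the C404A mutant 3 fell and 1 rose (median -0.14), the latter being RNR1 (0.53), on chromosome V. Against the deletant 1 was higher and 7 were lower in C404A control cells. The LoaOOH response passed for 0 genes of these lists, except SRL1, an SBF target, in the deletant (-0.38, adjusted p = 0.0343).

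Genes downstream of the G1 factors were mostly below the threshold. A list of 9 genes held MCM1 itself and early G1 genes under Mcm1 with Yox1 and Yhp1. Of these MCM3, on chromosome V, rose by 0.85 in deletant control cells (adjusted p = 4.82e-05) and by 0.58 in C404A control cells (adjusted p = 0.00278). Among LoaOOH arrays CDC6, which licenses replication origins, was higher by 0.58 in the deletant than in wild type (adjusted p = 0.0293). Its deletant means were 9.781 without LoaOOH and 9.872 with it. Of 6 Hcm1 target genes, 2 rose in deletant control cells: CIN8, a kinesin gene on chromosome V, by 1.09 (adjusted p = 1.85e-05) and NDD1, an activator of the next wave of genes, by 0.31 (adjusted p = 0.0172). In C404A control cells CIN8 rose by 0.94 (adjusted p = 0.000106). Among LoaOOH arrays FKH2, a forkhead factor of that wave, was lower by 0.33 in the C404A mutant than in wild type (adjusted p = 0.0114).

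Markers of other cell cycle phases were counted in control cells. Of 7 measured histone genes of S phase 0 passed in either mutant against wild type (medians -0.04 and 0.07). Of 10 measured G2/M genes HST3 rose by 0.26 in the deletant (adjusted p = 0.0293) and 0 passed in the C404A mutant. Of 11 M/G1 genes DSE1, on chromosome V, and ASH1 rose in the deletant, by 0.67 and 0.29, and in C404A cells DSE1 rose by 0.53 and PIR1 fell by 0.19. For C404A minus deletant, the contrast in which YOX1 passed, the median of the 11 M/G1 genes was -0.25, against -0.02 over all genes, and PIR1 was lower (-0.29, adjusted p = 0.00982). Histone and G2/M genes gave 0 calls there, with medians of 0.11 and -0.10. Their part in the levels of TOS8 and YOX1 was not tested.

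For the 5 members other than SWI6 whose group means spanned more than 0.5, the genes most like each were found by Pearson's r over the 18 arrays, which share genotypes, treatments and replicate sets. SWI4 was closest to COX15 (0.982), CAJ1 (0.979) and AIM9 (0.969), all on chromosome V. YOX1 was closest to PCL1 (0.922), a cyclin of the kinase Pho85 in G1, CLN2 (0.891), a G1 cyclin, and TOS2 (0.89), which encodes a protein of the bud. TOS2 fell in deletant control cells by 0.43 (adjusted p = 0.00643) and was higher by 0.43 in C404A than in deletant control cells (adjusted p = 0.03). TOS8 was closest to SWR1 (0.957), a chromatin remodelling ATPase gene, YPR148C (0.922) and SPT16 (0.917), a histone chaperone gene. SWR1 fell by 0.29 in deletant control cells (adjusted p = 0.0362), and its difference of -0.27 in C404A control cells did not pass (adjusted p = 0.0546). Among LoaOOH arrays SWR1 was below wild type by 0.34 in both mutants (adjusted p = 0.0134 and 0.0178). WHI5 was closest to PHO80 (0.927), KAR9 (0.926) and LDO16 (0.923), and NRM1 to the histone gene HTB2 (0.911), YLH47 (0.902) and RAS1 (0.899). None of these genes passed in a comparison between groups. WHI5, PHO80, KAR9 and LDO16 were lowest on C404A replicate 3, with and without LoaOOH. NRM1, HTB2, YLH47 and RAS1 were lowest on C404A LoaOOH replicate 3.

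**Figure D5:**
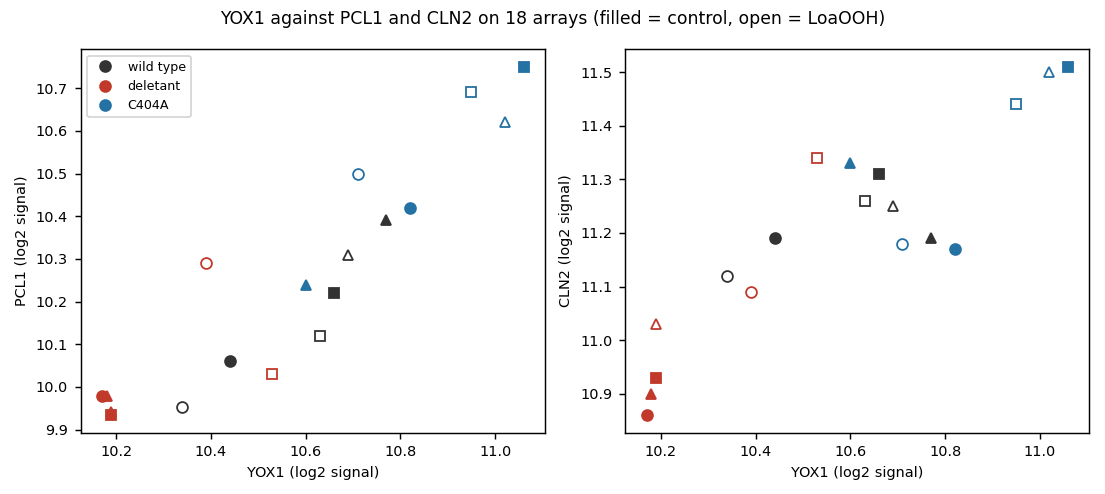
Log2 signal of PCL1 and of CLN2 (y axes) against YOX1 (x axis) on the 18 arrays, coloured by genotype, filled for control and open for LoaOOH, with circle, square and triangle for replicates 1, 2 and 3. The deletant control arrays and deletant LoaOOH replicate 3 (YOX1 between 10.17 and 10.19) lie at the lower left, and C404A replicate 2 of both treatments and C404A LoaOOH replicate 3 (YOX1 between 10.95 and 11.06) at the upper right of both panels.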

How the data were processed

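Biotin-labelled cRNA from 6 µg of total RNA was measured on Affymetrix arrays, 1 per sample. The submitters' processing notes name Affymetrix Expression Console and PLIER as the tools behind the deposited log2 values. The labels give no versions, settings or normalization, and the log2 base was read from the range of values, 2.474 to 14.99. The platform annotation assigned 5498 of 10928 probe sets to 1 yeast gene, named through the R64 gene table. For the 47 genes with several probe sets, the 1 without a suffix letter came first, then the highest mean. Background was the 95th percentile of 1746 probe sets of another organism. A lower bound on a fold was taken against that level.

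Groups came from the sample titles. The labels do not say that replicates were separate cultures, so p-values reflect only how these samples vary, which may be technical variation. Values entered unchanged into a limma fit (limma 3.58.1 in R 4.3.3) of 6 group means with 11 contrasts, two-sided, Benjamini-Hochberg over 5449 genes at 0.05 (14.76 degrees of freedom, 12 of them residual). Scripts were tested on simulated data. Members and lists were chosen with earlier results of these data known. Members are named in every comparison, and of a list at most the 3 called genes with the largest change, plus CLN3, MSA1, MSA2, SRL3 and CUP9.

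Deviations from the group mean of same-numbered control and LoaOOH arrays were correlated over genes. The values were 0.502 to 0.856 in wild type, 0.055 to 0.264 in the deletant and 0.115 to 0.605 in the C404A mutant. For different-numbered arrays they were -0.673 to 0.199, -0.232 to 0.001 and -0.369 to 0.227. Numbers were taken to pair arrays where all 3 same-numbered values exceeded 0.1, so for wild type and C404A and not the deletant. This choice is uncertain for the mutants. Every same-numbered value in the deletant exceeded its different-numbered values. C404A control replicate 1 was closer to LoaOOH replicate 2 (0.227) than to LoaOOH replicate 1 (0.115). C404A control replicate 2 was no closer to LoaOOH replicate 2 (0.182) than to LoaOOH replicate 1 (0.187). Between genotypes 11 of 36 same-numbered pairs exceeded 0.1, and the numbers were not taken to pair them. The number of arrays limits the precision.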

Additional observations from a re-analysis of the deposited data

Results flagged for a closer look

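The LoaOOH responses of HCM1 and YOX1 went opposite ways in the deletant and in wild type in every pair of arrays with the same replicate number. HCM1 differed after LoaOOH by -0.236, -0.022 and -0.032 in wild type and by 0.314, 0.188 and 0.243 in the deletant, and the difference of the mean responses was 0.345 (adjusted p = 1 by limma). YOX1 differed by -0.103, -0.03 and -0.079 in wild type and by 0.217, 0.339 and 0.005 in the deletant, and the difference was 0.258 (adjusted p = 1). Over all genes 31 of 5449 (0.569%) had opposite signs in every such pair of these genotypes. The test of the difference itself passed for neither gene, and the replicate numbers of the deletant were not taken to pair its arrays.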

How the results depend on the processing

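Over the members, 1809 values were recomputed under alternatives, and 1779 stayed on the same side of the threshold, 27 lost a call, 3 gained a call and 0 called values changed direction. A further description is that 96 values changed sign while below the threshold in both fits. Removing the chromosome V shift left 2 members called for the deletant against wild type control cells, 0 for the C404A mutant in control cells and 1 after LoaOOH, and leaving out chromosome V genes gave the same 3 counts (2, 0 and 1). In these fits the differences of YOX1 and TOS8 did not move, and fewer genes were called overall. Their adjusted p became 0.0621 and 0.0692 for YOX1 in the deletant and 0.0513 and 0.0644 for TOS8 in C404A control cells. On the CT arrays alone 1 member was called for the C404A mutant against wild type in control cells, 1 after LoaOOH and 1 against the deletant in control cells. Leaving out single arrays gave 3 to 4 members for the deletant against wild type in control cells and 3 to 4 after LoaOOH, 1 to 2 and 2 to 2 for the C404A mutant, and 1 to 2 for the C404A mutant against the deletant in control cells and 1 to 2 after LoaOOH. YOX1 is the member gained in the last, without C404A LoaOOH replicate 1 (0.618, adjusted p = 0.048). For LoaOOH responses and their differences it gave 0 to 0. With the description prefix as a block YOX1 in the deletant had adjusted p = 0.0613.

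With the replicate block, 4 and 3 members were called for the deletant against wild type without and with LoaOOH, 2 and 2 for the C404A mutant, 2 and 1 for the C404A mutant against the deletant and 0 for each response, so this block changed no call of a member. A block within genotype, chosen after seeing the data, called 1 member in the deletant response, HCM1 (0.248, adjusted p = 0.0497). Counts over all genes moved more than those of members. With the chromosome V shift removed they were 321 and 321 for the deletant (551 and 567 as reported) and 176 and 160 for the C404A mutant (449 and 402), and without chromosome V genes 250, 255, 94 and 69. On the CT arrays they were 264 for C404A minus wild type in control cells, 15 and 26 against the deletant (98 and 79), and 0 for each response (14 in wild type and 194 in the deletant). Both responses fell to 0 with the replicate block or the prefix as a block, and the wild type response rose to 97 with an intensity trend. Single arrays moved the response counts to between 0 and 1, 0 and 59, and 0 and 183. The cause of these changes was not tested.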
